A study of Mus musculus with 9 samples.

Results

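Zinc finger proteins that hold methylation at imprinted loci, and the corepressors that work with them, were followed as a set of 10 genes in mouse embryonic stem cells with and without Gzf1. The set comprised the zinc finger genes Gzf1, Zfp57, Zfp445 and Zfp202, the corepressor genes Trim28, Setdb1 and Atf7ip, and Aff3, Arid4a and Arid4b. The 10 genes were taken by symbol from the 30232 gene rows of the count table, and each had a row of its own. Of them 9 were among the 12645 rows with enough counts to test, and Zfp202 was not. RNA was measured in 9 libraries (4 wild-type, 5 with Gzf1 knocked out) by MARS-seq2.0, which counts the 3' ends of polyadenylated transcripts. Replicates 1 and 2 of each genotype were cells of the line RGM and belong to run2. Run1 held wild-type replicate 3 and knockout replicates 3, 4 and 5, all of the line V6.5, and wild-type replicate 4, of a line named Cas9-GFP. All 9 cultures grew in serum medium with LIF on irradiated fibroblast feeders that were depleted before harvest. Nothing in the labels tells separate cultures or clones within a group, so the p-values below rest on differences among single libraries that may be technical. RGM and run2 coincide, so the difference of RGM from the other lines cannot be told apart from the run. In run1 the wild-type libraries are of different lines, and the knockouts are all V6.5. Where in Gzf1 the edit lies is not stated in the labels.

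At an imprinted locus 1 parental copy carries DNA methylation that was laid down in the germline and must survive the genome-wide loss of methylation in the early embryo. KRAB zinc finger proteins such as Zfp57 and Zfp445 read the methylated copy by its sequence and recruit Trim28 (also called KAP1), which brings the H3K9 methyltransferase Setdb1, its partner Atf7ip, HP1 proteins and the maintenance methyltransferase Dnmt1. Gzf1 is a zinc finger protein with a BTB domain in place of a KRAB domain, and the series title names it with Zfp57 at the imprinted Dlk1-Dio3 cluster. Embryonic stem cells keep this machinery active, since it also silences many endogenous retroviruses.

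By position, the zinc finger genes lie on 3 chromosomes in the GENCODE M21 annotation of GRCm38. Gzf1 is at chr2:148681023-148692949 on the plus strand and Zfp57 at chr17:37001163-37010635 on the plus strand. Zfp445 (chr9:122844529-122866006, minus strand) and Zfp202 (chr9:40192316-40213604, plus strand) share chromosome 9. Among the corepressors, Trim28 spans chr7:12999114-13031035 on the plus strand, Setdb1 chr3:95323525-95357202 on the minus strand and Atf7ip chr6:136506167-136610862 on the plus strand. The 3' end of Setdb1 is covered by Cers2 on the opposite strand, and no source used here says whether counting used strand. Aff3 lies at chr1:38177326-38664955 on the minus strand, Arid4a at chr12:71015990-71098592 and Arid4b at chr13:14063232-14199603, both on the plus strand.

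The sequences upstream of 3 of these genes are shown because Gzf1 is the targeted gene, Zfp57 is the member that differed most between the cell lines, and the Trim28 promoter holds the hexamer at the core of the Zfp57 motif. They are from RefSeq (GRCm38.p6), run 5' to 3' on the plus strand, and end before the start of the gene or transcript: chr2:148680870-148681022 for Gzf1, chr17:37000913-37001162 for the first of 3 listed starts of Zfp57, and chr7:13023902-13024151 for Trim28. Capitals mark the hexamer.
Gzf1: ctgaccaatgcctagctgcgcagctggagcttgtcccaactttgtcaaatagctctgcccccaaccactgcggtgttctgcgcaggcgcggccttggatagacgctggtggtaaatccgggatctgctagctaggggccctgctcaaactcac
Zfp57: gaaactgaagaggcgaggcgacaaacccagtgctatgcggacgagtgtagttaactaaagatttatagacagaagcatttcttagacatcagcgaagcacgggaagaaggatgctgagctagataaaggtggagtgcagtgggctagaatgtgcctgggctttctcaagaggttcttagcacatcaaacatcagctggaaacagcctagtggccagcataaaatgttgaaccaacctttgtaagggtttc
Trim28: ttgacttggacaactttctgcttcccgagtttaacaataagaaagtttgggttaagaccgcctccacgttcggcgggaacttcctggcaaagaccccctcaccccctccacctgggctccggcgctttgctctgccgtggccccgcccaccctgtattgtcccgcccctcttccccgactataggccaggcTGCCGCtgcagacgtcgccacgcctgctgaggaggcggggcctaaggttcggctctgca
The hexamer TGCCGC, whose methylated form Zfp57 binds, was searched on both strands (GCGGCA on the other) in the 250 bases before each listed start. Entries were found for 9 of the 10 members, with 11 starts, and 2 of the 11 held it, those of Trim28 and Zfp202. Among all 32851 listed starts 2850 (8.7%) held it. The Gzf1 sequence above is the first 153 of its 250 bases. In the full 250 bases the Gzf1 start had 18 CpG dinucleotides and the Trim28 start 17, against 6 for the Zfp57 start and a median of 6 over all starts. These matches describe the letters only.

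Libraries held 2568489 to 7072697 counts, with the run2 libraries the shallower, and 3 counts, the floor used here, correspond to 0.412 to 1.18 CPM (counts scaled to library size). Markers of embryonic stem cells were present in all 9 libraries, with summed levels of 4304 to 4822 CPM in the RGM libraries and 5032 to 6036 CPM in the run1 libraries. These sums hide single markers: of 12 tested, 2 were higher in RGM and 3 lower, with log2 differences from -1.44 to 3.30. Of 4 tested primitive endoderm markers 1 was higher in RGM and 0 lower. Among all tested genes 45.3% passed between the lines. The 15 markers of feeder fibroblasts summed to 2354 to 3911 CPM in RGM and 1114 to 1802 CPM in run1. Of the 14 tested, 13 were higher in RGM, and 1 marker was at 0 in wild-type replicate 3. Each level below is a bulk value, in which fewer cells of a type and less RNA per cell cannot be told apart.

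**Figure D1:**
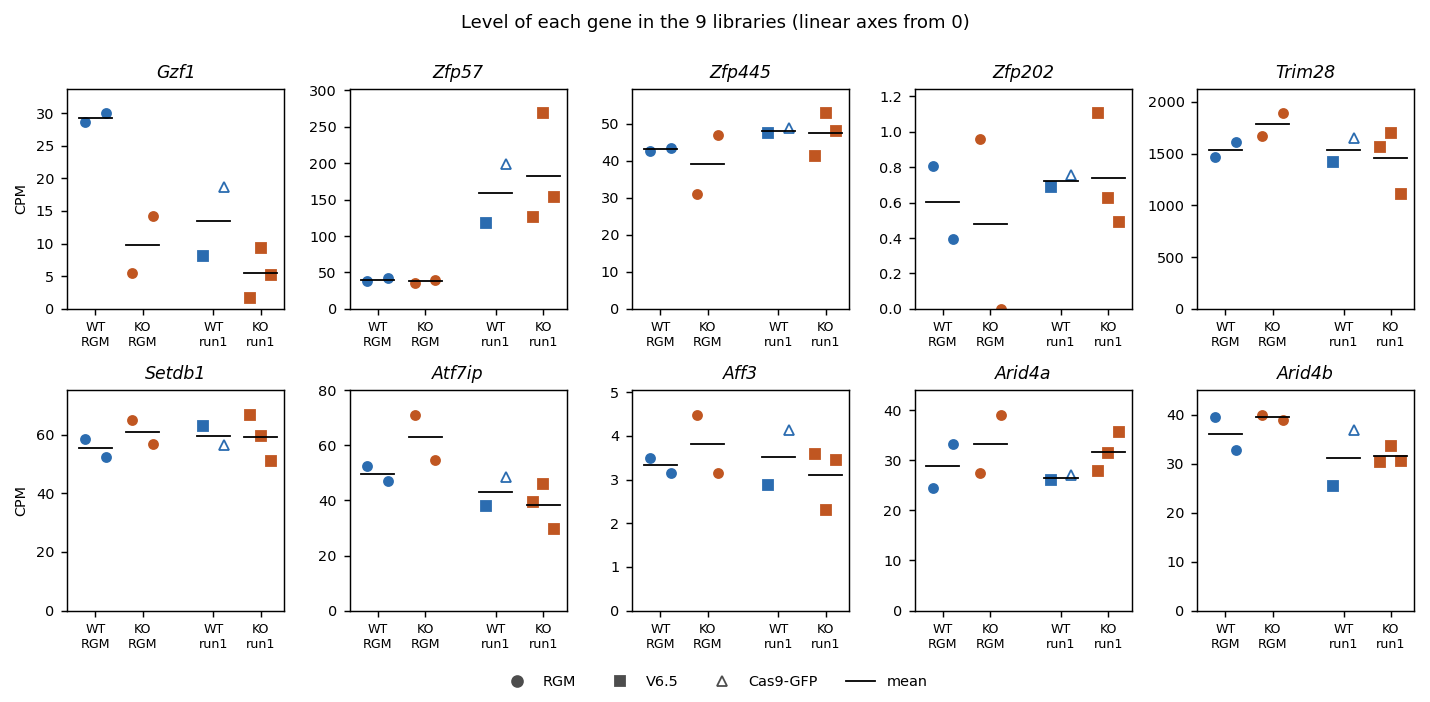
CPM of each of the 10 genes (1 panel per gene, y axis from 0) in each of the 9 libraries, with a bar at the mean of each genotype within a run. The Gzf1 mean is lower for the knockout in each run, and Zfp57 is at 36.2 to 42.6 CPM in the 4 RGM libraries and at 119 CPM or more in run1.

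Gzf1, the targeted gene, had a lower mean level in knockout than in wild-type libraries in both runs, a difference that did not pass the test, and its transcript was still counted in every knockout library. In wild-type cells it stood at 28.6 and 30.0 CPM in RGM (replicates 1 and 2), 8.11 CPM in V6.5 (replicate 3) and 18.7 CPM in Cas9-GFP (replicate 4). In knockout cells it stood at 5.45 and 14.2 CPM in RGM (replicates 1 and 2) and at 1.66, 9.40 and 5.24 CPM in V6.5 (replicates 3, 4 and 5). Within RGM the genotypes were separate, and in run1 the highest knockout value (replicate 4) exceeded the V6.5 wild-type value, so the genotypes overlapped over all libraries. With 2 libraries per genotype in RGM separation is easily reached, and the share of all genes separated there was not counted. The raw counts behind these levels were 59 to 106 in wild-type and 12 to 45 in knockout libraries, and the lowest library, knockout replicate 3, had 12 counts with an exact Poisson interval of 0.857 to 2.90 CPM. Such intervals cover counting error only. The wild-type mean was 21.3 ± 10.2 CPM (SD, n = 4) and that of the knockouts 7.19 ± 4.78 CPM (SD, n = 5), where the threshold of the test was an adjusted p under 0.05. The log2 fold change was -1.45 (SE 0.42, 95% interval -2.37 to -0.53, unadjusted p = 0.0048, adjusted p = 0.9998 in edgeR). The knockout mean was 33.6% of the wild-type mean in run2 and 40.6% in run1, with log2 fold changes of -1.60 (SE 0.66) and -1.33 (SE 0.58). The difference between those effects, -0.27 (SE 0.89, edgeR unadjusted p = 0.77), was smaller than its error. These SEs rest on a spread shared by both runs. The 4 RGM libraries alone gave -1.63 (SE 0.30, edgeR unadjusted p = 4.6e-05, adjusted p = 0.053). The 5 run1 libraries alone gave -1.31 (SE 0.63, edgeR unadjusted p = 0.064, adjusted p = 0.9999). With the replicate number as a block the log2 fold change was -1.58 and passed the threshold (edgeR adjusted p = 0.027), and without a filter on low counts it was -1.46 (edgeR adjusted p = 5e-05). The SE was 0.26 in each of these fits, against 0.42 in the main fit. Both calls therefore came with a smaller estimated error at a similar effect. The block sets Cas9-GFP wild type against V6.5 knockout at number 4 and holds no partner for knockout replicate 5. The labels do not say that the numbers pair libraries. Leaving out 1 library at a time gave -1.78 to -1.18, with none of the 9 fits past the threshold. The size of the effect within a run moved with single libraries. Within run2 it was -1.04 without knockout replicate 1 and -2.42 without knockout replicate 2. Within run1 it was -0.62 without wild-type replicate 4, which leaves V6.5 cells alone, and -1.96 without knockout replicate 4. Because 3' counts can lie away from an edit, these levels do not measure the loss of the protein.

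Gzf1 also differed between the lines by more than its spread in some fits and not in others. The log2 difference of RGM over the run1 lines was 1.01 (SE 0.43, edgeR adjusted p = 0.071). DESeq2 gave 0.99 with an adjusted p of 0.034, and edgeR without knockout replicate 1 or without knockout replicate 4 gave 1.26 (adjusted p = 0.042) and 1.28 (adjusted p = 0.013). In wild-type cells alone the difference was 1.14 (SE 0.62, edgeR adjusted p = 0.20). With no filter on low counts it was 1.12 (SE 0.38, edgeR adjusted p = 0.021), a similar effect with a smaller SE. In knockout cells it was 0.87 (SE 0.63, edgeR adjusted p = 0.34), and 0.05 without knockout replicate 2. Over all 9 libraries the highest Gzf1 level was 18.1-fold the lowest.

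None of the 9 tested members passed the threshold in the comparison of knockout with wild type, in which 4 of 12645 genes (0.0316%) did. Their median log2 fold change was 0.05, beside 0.01 for all tested genes. Of all genes, 293 had an unadjusted p under 0.05 in edgeR, and Gzf1 was the only member among them. DESeq2 called 7 genes and none of the members. No member was called within run2, where 0% of genes were in edgeR (104 at an unadjusted p under 0.05, 2 called by DESeq2), or within run1, where 0.0158% were. Gzf1 alone of the members had an unadjusted p under 0.05 there, with 0.034 in run2 and 0.043 in run1. The difference of the knockout effect between the runs passed for no member and for 0% of genes in edgeR, with 182 genes and no member at an unadjusted p under 0.05. DESeq2 called 0 genes for it. No member had wild-type and knockout libraries that did not overlap, as 0.443% of all genes did.

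**Figure D2:**
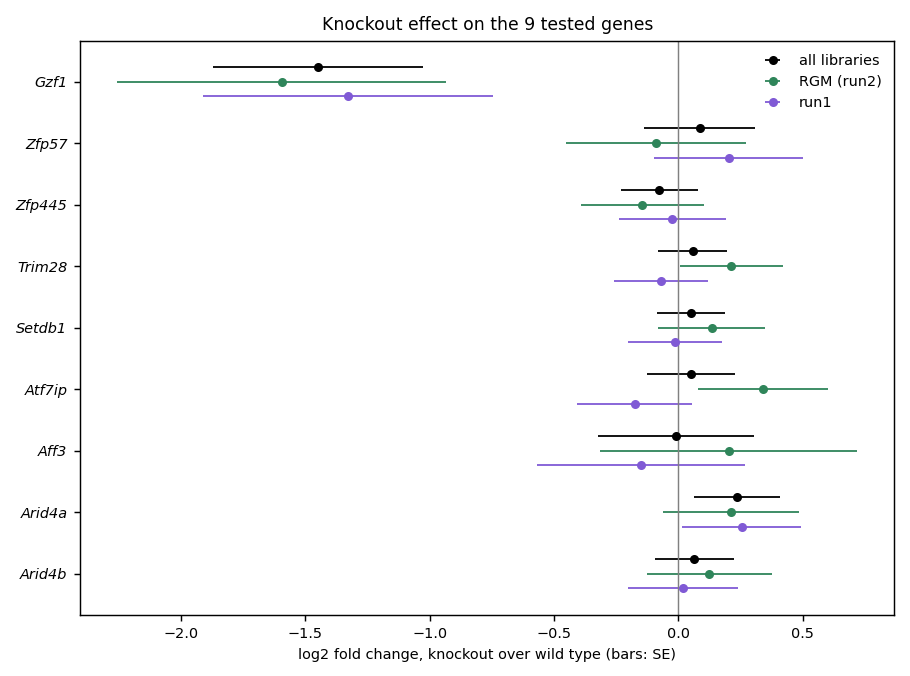
Log2 fold change of knockout over wild type for the 9 tested genes (points, x axis), over all libraries and within each run. Lines show the SE to each side. Gzf1 lies at -1.45 over all libraries. Lines of some of the other 8 genes, such as Atf7ip within run2, do not reach 0. No gene shown passed the threshold of the test.

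Zfp57, the KRAB zinc finger protein that keeps methylation at most mouse imprints, did not differ by genotype beyond its spread and had a lower level in RGM than in the run1 lines. In RGM the wild-type libraries stood at 38.0 and 42.6 CPM and the knockout libraries at 36.2 and 39.5 CPM. In run1 it stood at 119 CPM in wild-type V6.5, 200 CPM in wild-type Cas9-GFP and 127, 269 and 154 CPM in knockout V6.5 (replicates 3, 4 and 5). The genotypes overlapped in each run, in run1 through the Cas9-GFP library, since the 3 V6.5 knockouts were above the V6.5 wild type. Every RGM library was below every run1 library. The knockout effect was 0.09 (SE 0.22, 95% interval -0.40 to 0.57), with -0.09 (SE 0.36) in run2 and 0.20 (SE 0.30) in run1. The run1 value was 0.62 without wild-type replicate 4, -0.13 without wild-type replicate 3 and -0.18 without knockout replicate 4, and none of these passed the test. The effect was -0.14 over all libraries without knockout replicate 4, the highest library.

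The difference of Zfp57 between the lines was the largest of any member. The RGM mean was 39.1 ± 2.72 CPM (SD, n = 4) and the run1 mean 173.5 ± 62.0 CPM (SD, n = 5), and the fitted difference was 4.40-fold. Within run1 the V6.5 mean was 167 ± 69.6 CPM (SD, n = 4), a spread that holds the single Cas9-GFP value. RGM was lower by a log2 difference of -2.14 (SE 0.24, edgeR adjusted p = 1.9e-05). It was lower in wild-type cells, at -1.98 (SE 0.35, edgeR adjusted p = 0.0028), and in knockout cells, at -2.27 (SE 0.34, edgeR adjusted p = 0.00092). Each of these 3 calls stood in all 9 fits that left out 1 library, with -2.29 to -1.94 over all libraries. Line differences were common: 45.3% of all tested genes passed the threshold between RGM and the run1 lines, 23.1% of all genes being lower in RGM, and 38.6% had libraries that did not overlap (19.2% with RGM lower, 19.4% with RGM higher). Zfp57 was the only member whose lines did not overlap. A log2 difference as low as that of Zfp57 was found in 295 genes (2.33%). The summed feeder fibroblast markers were higher in RGM, as given above, and their part in this difference was not tested.

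**Figure D3:**
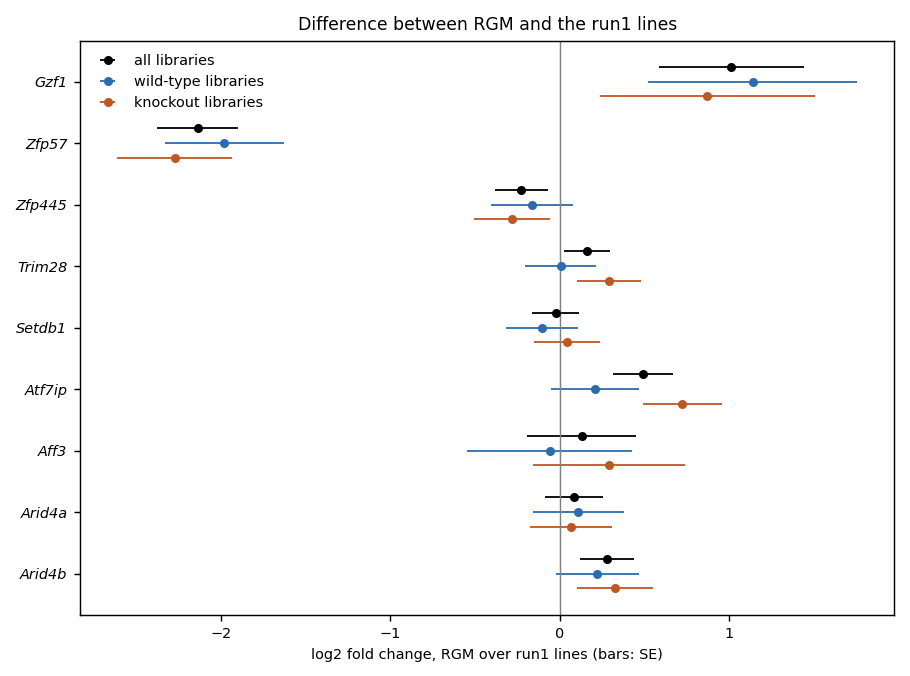
Log2 difference of RGM over the run1 lines for the 9 tested genes (points), over all libraries, in wild-type libraries and in knockout libraries. Lines show the SE to each side. Zfp57 lies at -2.14, -1.98 and -2.27, to the left of 0 in each, and Atf7ip lies at 0.49, 0.21 and 0.72.

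Among the 9 tested members, 1 was lower in RGM (Zfp57) and 1 was higher (Atf7ip), against 23.1% and 22.2% of all genes in those directions. Their median was 0.13, beside -0.02 for all genes. In wild-type cells the call was for Zfp57 alone, where 24.4% of genes passed, and in knockout cells for Zfp57 and Atf7ip, where 25% passed.

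Zfp445, the KRAB zinc finger protein that shares the upkeep of imprints with Zfp57, was steadier. It ranged from 42.6 to 48.8 CPM in the 4 wild-type libraries and from 31.1 to 52.8 CPM in the 5 knockout libraries. The lowest value was knockout replicate 1, and the remaining 8 libraries overlapped in genotype and line. Means were 45.6 ± 3.02 CPM (SD, n = 4) and 44.0 ± 8.34 CPM (SD, n = 5), with a knockout effect of -0.08 (SE 0.15, 95% interval -0.41 to 0.26). The line difference was -0.23 (SE 0.16, edgeR adjusted p = 0.26). Zfp202, another zinc finger gene, was near the floor. Its counts were 3, 1, 5 and 4 in wild-type and 3, 0, 8, 3 and 3 in knockout libraries, 30 in all, and only 3 of 9 libraries had more than 3 counts. In knockout replicate 2, with 0 counts, the floor of 3 counts corresponds to 1.18 CPM, and the 95% counting interval reaches 1.46 CPM. At this depth Zfp202 was not tested for a difference between groups.

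The corepressors showed no difference by genotype that passed the test. Trim28, the scaffold that KRAB zinc finger proteins bind, stood at 1464, 1615, 1416 and 1650 CPM in wild-type replicates 1 to 4. In the knockout libraries it stood at 1675, 1893, 1566, 1704 and 1106 CPM (replicates 1 to 5), so both the highest and the lowest library were knockouts. The knockout effect was 0.06 (SE 0.14, 95% interval -0.24 to 0.35), with 0.21 (SE 0.21) in run2 and -0.07 (SE 0.19) in run1. The line difference was 0.16 (SE 0.14, edgeR adjusted p = 0.36). Setdb1, which trimethylates H3K9 at sites bound by Trim28, varied least of the tested members, with its highest library (66.8 CPM) 1.31-fold its lowest (51.0 CPM). The wild-type mean was 57.6 ± 4.41 CPM (SD, n = 4), and the knockout mean 59.8 ± 6.38 CPM (SD, n = 5). The knockout effect was 0.05 (SE 0.14, 95% interval -0.24 to 0.34) and the line difference -0.02 (SE 0.14, edgeR adjusted p = 0.91).

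Atf7ip, which stabilizes Setdb1 and keeps it in the nucleus, was the other member that differed by line. In RGM it stood at 52.6 and 47.0 CPM without the knockout and at 71.1 and 54.9 CPM with it. In run1 it stood at 37.9 CPM in wild-type V6.5, 48.4 CPM in Cas9-GFP and 39.3, 45.9 and 29.5 CPM in knockout V6.5. The Cas9-GFP library lay inside the RGM range, while the knockout libraries of the lines were separate. The share of all genes separated among the knockout libraries was not counted. RGM was higher by 0.49 (SE 0.18, edgeR adjusted p = 0.034), with means of 56.4 ± 10.4 CPM (SD, n = 4) for RGM and 40.2 ± 7.44 CPM (SD, n = 5) for run1. The difference was 0.72 in knockout cells (SE 0.23, edgeR adjusted p = 0.038) and 0.21 in wild-type cells (SE 0.26, edgeR adjusted p = 0.59). The call over all libraries was lost in 6 of the 9 fits that left out 1 library, those without wild-type replicate 1 (edgeR adjusted p = 0.067) or 3 (0.074) or without knockout replicate 1 (0.17), 2 (0.060), 3 (0.058) or 5 (0.054). The call in knockout cells stood in 3 of 9 such fits, with edgeR adjusted p from 0.014 to 0.31. By run, the knockout effect was 0.34 (SE 0.26) in RGM and -0.18 (SE 0.23) in run1. These differed by 0.52 (SE 0.35, edgeR unadjusted p = 0.16), which did not pass.

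Aff3, a subunit of a super elongation complex that binds methylated imprinting control regions, had 8 to 26 counts per library. The wild-type mean was 3.42 ± 0.54 CPM (SD, n = 4), and the knockout mean 3.40 ± 0.79 CPM (SD, n = 5). The knockout effect of -0.01 had an SE of 0.31 and a 95% interval of -0.68 to 0.66, the widest among the members other than Gzf1. The line difference was 0.13 (SE 0.32, edgeR adjusted p = 0.77). Arid4a and Arid4b encode subunits of the SIN3 histone deacetylase complex that act at the Prader-Willi imprinting centre. Arid4a stood at 24.5, 33.2, 26.0 and 27.1 CPM in wild-type replicates 1 to 4 and at 27.5, 39.1, 27.8, 31.5 and 35.7 CPM in knockout replicates 1 to 5. In run1 every knockout library was above both wild-type libraries, and in run2 the genotypes overlapped. The share of all genes separated within run1 was not counted. The knockout effect was 0.24 (SE 0.17, 95% interval -0.13 to 0.60, edgeR unadjusted p = 0.19) and the line difference 0.09 (SE 0.17, edgeR adjusted p = 0.71). Arid4b had a wild-type mean of 33.7 ± 6.20 CPM (SD, n = 4) and a knockout mean of 34.7 ± 4.61 CPM (SD, n = 5), with an effect of 0.06 (SE 0.16, 95% interval -0.28 to 0.41). Its line means, 37.9 ± 3.43 CPM in RGM (SD, n = 4) and 31.4 ± 4.28 CPM in run1 (SD, n = 5), gave a difference of 0.28 (SE 0.16, edgeR adjusted p = 0.16).

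Genes that work with the members or in related complexes were taken as 8 lists with 86 rows, of which 83 were tested. None passed the threshold between knockout and wild type in edgeR or DESeq2, and their median was 0.04. In edgeR 2 of the 83 had an unadjusted p under 0.05, as did 293 of all 12645 genes, a similar share. The 2 were Ccnt2, a cyclin of the elongation kinase P-TEFb, with 0.36 (SE 0.14, edgeR unadjusted p = 0.018), and Ehmt2, the H3K9 dimethyltransferase G9a, with 0.42 (SE 0.17, edgeR unadjusted p = 0.024). The Ehmt2 row is merged with the transcript AK211100. Dppa3, the maternal factor that limits maintenance methylation through Uhrf1, had a wild-type mean of 133 ± 72.2 CPM (SD, n = 4) and a knockout mean of 90.0 ± 82.2 CPM (SD, n = 5). Its effect was -0.70 (SE 0.40, edgeR adjusted p = 0.9998), and without a filter on low counts it was -0.72 and passed (edgeR adjusted p = 0.0037). By run it was -0.11 (SE 0.55) in run2 and -1.21 (SE 0.50, edgeR unadjusted p = 0.034, adjusted p = 0.9995) in run1, the latter -1.20 with an adjusted p of 4.5e-05 when no filter was used. Both unfiltered effects were close to those with the filter, so these calls came with a changed estimate of error. The difference between the runs, 1.10 (SE 0.75, edgeR unadjusted p = 0.17), did not pass.

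Between the lines 16 of the 83 genes were higher in RGM and 16 lower, 38.6% in all, below the 45.3% of all tested genes. In the list for maintenance of CpG methylation 2 of 6 were higher and 1 lower. Dppa3 was at 184 ± 16.4 CPM in RGM (SD, n = 4) and 48.8 ± 36.4 CPM in run1 (SD, n = 5), a log2 difference of 1.95 (SE 0.41, edgeR adjusted p = 0.0024). Dnmt1, which copies methylation to new DNA strands, was higher in RGM by 0.52 (edgeR adjusted p = 0.0018; row merged with Mir7081), and Ctcf, the insulator protein of imprinted domains, was lower by -0.57 (edgeR adjusted p = 0.0054). In the list of HUSH, MORC and other silencing genes 1 of 9 was higher and 2 were lower. Atrx, Daxx, Smarcad1 and Resf1 are in this list as other silencing genes. Atrx, a chromatin remodeller that deposits histone H3.3 at silent repeats and imprints, was at 61.8 ± 12.0 CPM in RGM (SD, n = 4) and 210 ± 38.7 CPM in run1 (SD, n = 5), with a difference of -1.76 (SE 0.17, edgeR adjusted p = 3.4e-06). Resf1, a partner of Setdb1 in retrovirus silencing, was higher in RGM by 1.09 (SE 0.18, edgeR adjusted p = 0.00024).

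Among H3K9 methyltransferases and HP1 proteins 1 of 8 was higher and 2 were lower, among them Cbx5 (HP1 alpha) at -0.68 (edgeR adjusted p = 0.0020). In the NuRD complex, which Trim28 also recruits, 2 of 13 were higher and 6 lower. The deacetylases Hdac1 and Hdac2 were lower, by -0.85 and -0.78, and the histone-binding subunit Rbbp4 was higher, by 0.82. In the SUMO pathway, which modifies Trim28, 2 of 12 were higher and 3 lower, with the protease Senp3 at -1.14 and the protease Senp7 at 0.98. In the SIN3 complex, the partners of the Arid4 proteins, 2 of 13 were higher and 0 lower, the histone demethylase Kdm5a at 0.53 and Sinhcaf at 0.81. The list for the super elongation complex also holds Aff1, Aff2, Aff4, Hexim1 and Larp7, and is not a list of Aff3 partners alone. In it 5 of 14 were higher and 2 lower, with the kinase Cdk9 at 0.87 and its cyclin Ccnt1 at -1.29. Among KRAB zinc fingers of retrotransposons 1 of 8 was higher, Zfp961 at 0.70. Every gene named here for a line difference passed the edgeR threshold. The feeder marker sums differed between the same groups of libraries, and the dependence of these line differences on them was not tested.

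**Figure D4:**
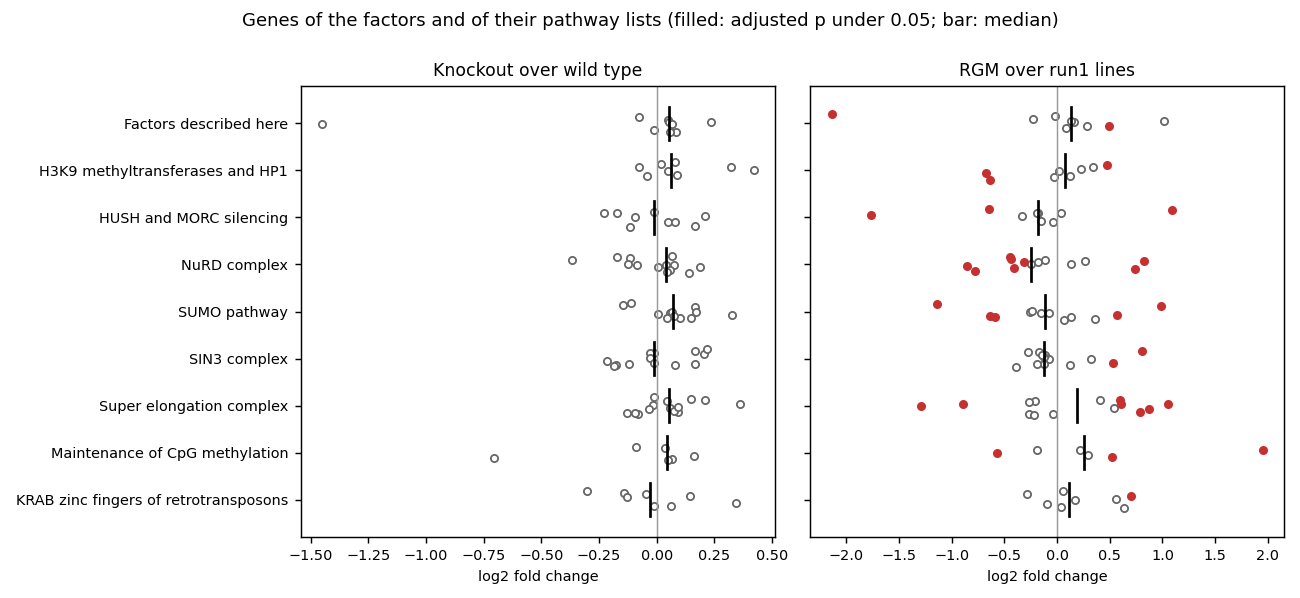
Log2 values of the tested members (top row) and of the genes in the 8 lists (1 row per list, 1 point per gene). Panels show knockout over wild type and RGM over the run1 lines, with called genes in red and a bar at each row's median. No point is called for the knockout, and called points lie on both sides of 0 for the line difference.

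Zfp57 and Gzf1 were also set against all tested genes by their pattern over the 9 libraries, as log2 CPM with the mean of each run removed. Among the genes most alike to Gzf1 were Rpl10l (r = 0.98) and Rps19bp1 (r = 0.97). For Zfp57 the 3 most alike were Kcnk2 (r = 0.98), a gene of low counts, Epha2 (r = 0.97) and Lgals3 (r = 0.97), each of which, like Zfp57, was highest among the run1 libraries in knockout replicate 4. Gzf1 and Zfp57 had r = 0.51 with each other. These values describe 9 libraries that share runs and scaling, and the best of 12645 genes is high by selection.

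At the Dlk1-Dio3 cluster, named with both proteins in the title, the maternal RNA Meg3 was at 156 ± 79.3 CPM in wild-type (SD, n = 4) and 32.6 ± 18.7 CPM in knockout cells (SD, n = 5), a log2 fold change of -2.31 (SE 0.48, edgeR adjusted p = 0.97). All 3 tested cluster genes had negative log2 fold changes for the knockout, from -3.28 to -0.85, and none was called. Of the 3 cluster genes tested between the lines, Dlk1, the paternally expressed gene, was lower in RGM by -1.58 (SE 0.29, edgeR adjusted p = 0.00066), while Meg3 (0.34, SE 0.48) and Mirg (-0.63, SE 0.63) did not pass.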

How the data were processed

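The authors deposited 1 table of raw counts per gene symbol, and STAR, DESeq2 and mm10 are named without roles in the submitters' processing notes. No source used here states the counter, its strand setting or whether reads or molecules were counted. The members, gene lists and tests were chosen with earlier results of these data known. Of 30324 rows, 92 spike-in rows were left out. Low genes were removed by filterByExpr (minimum count 10, grouped by genotype). After TMM scaling, edgeR 4.0.16 under R 4.3.3 fitted genotype and run and gave robust quasi-likelihood F tests. Effects within a run or genotype came from a fit of 4 groups over all libraries. P-values were adjusted over all 12645 genes (Benjamini-Hochberg, threshold 0.05), and every p without another tool's name is from edgeR. Each SE is the size of the log2 fold change over the root of its F value. CPM use TMM-scaled sizes, and SDs are over libraries.

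Named genes were all members, up to 2 genes of smallest p per list for the knockout and up to 4 past the threshold for the line, of which the text gives a part, the 3 most alike genes for Gzf1 and Zfp57 (1 of them is not reported here), and genes of the Dlk1-Dio3 cluster. Libraries with the same number deviated together from their genotype means (r = 0.76, 0.71, 0.65 and 0.73 for numbers 1 to 4), which holds the run. After the run was removed r was -0.05 for both numbers 1 and 2, which are the same value by construction with 2 libraries per genotype. It was 0.29 and 0.32 for numbers 3 and 4. This check does not decide whether the numbers pair the libraries, and they were not taken to do so. Library pairs of 1 genotype and run differed beyond sampling noise (chi-square per degree of freedom 2.48 to 24.0). Alternatives were RLE scaling, no filter, DESeq2 1.42.0, the replicate block, other terms, single runs and leaving out each library. On simulated counts 54% of 2-fold and 95% of 4-fold changes were recovered for the knockout comparison (12365 genes), with 10.8% of 167 calls unchanged genes, and 61% and 90% for the line comparison (12216 genes). The simulated knockout held many more changed genes than the 4 called in the data, which loosens the adjusted threshold. In the data Meg3 was not called at a log2 fold change of -2.31. The simulated shares therefore do not give the power of the knockout comparison. GENCODE symbols matched 12070 rows (95.5%).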

Additional observations from a re-analysis of the deposited data

How the results depend on the processing

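No member's called value changed direction under any alternative run. Of 801 values of a member under an alternative, 762 were taken as unchanged, 12 lost the call and 7 gained it. Uncalled values were taken as unchanged only within the SE of the main value, and 20 moved by more. For values called in both fits the size was not compared. Among uncalled values 58 changed sign. Genes called for the knockout over all libraries (4) were 35 with no filter, 7 with DESeq2, 2 without a run term and 2 to 4 when 1 library was left out. Members called (0) were 1 with no filter and 1 with the replicate block, in both cases Gzf1, and the block called 6 genes in all; knockout replicate 5 has no partner in it. List genes called (0) were 1 with no filter, Dppa3. Within run2 (0 genes) the counts were 7 with no filter, 2 with DESeq2, 9 from RGM alone and 0 to 1 on leaving out 1 library. Within run1 (2 genes) they were 46, 4, 1 from run1 alone and 0 to 8. The difference between runs (0) was 1 with no filter. For the line, members called (2) were 1 to 3 on leaving out 1 library. For the line in wild-type cells (3081 genes, 1 member, 15 list genes) leaving out 1 library gave 883 to 4087 genes and 3 to 21 list genes, and no filter gave 2 members. In knockout cells (3160 genes, 2 members, 15 list genes) it gave 892 to 3531, 1 to 2 and 3 to 22. With no filter the Gzf1 knockout effect was -1.46 (SE 0.26), against -1.45 (SE 0.42), so that call came with a smaller SE. Why the SE fell was not tested, nor was the cause of the other shifts. Without a filter the median line difference of all genes was -0.13, against -0.02. Depth limits Zfp202 and Aff3 most, with 30 and 144 counts in all.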
